A study of Vulpes lagopus with 12 samples.

Results

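Cell cycle and DNA replication genes were read in blood RNA of the Arctic fox (Vulpes lagopus), a small wild canid of the tundra, with an Affymetrix Canine Genome 2.0 array, which carries probes made for dog transcripts. The genes were 40 symbols of DNA replication and of mitosis, and every probe set (a group of short probes read as 1 value) annotated with exactly 1 of these symbols was taken. Of the 40 genes, 36 had such a probe set: 18 of 18 S phase genes with 41 probe sets, and 18 of 22 mitotic genes with 35. These 76 probe sets stood among 42924 that were tested, and the 36 genes among 15115. CCNB1, BUB1, CENPE and MKI67 had no probe set with a single symbol and were skipped, so MKI67, a common marker of proliferation, is not among the genes read.

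A dividing cell copies its DNA in S phase and shares the copies out in mitosis. Replication needs nucleotide building blocks, a licensing step that loads the MCM helicase ring on origins, activation of that ring, and polymerases held on DNA by the PCNA clamp. Mitosis is driven by CDK1 with its cyclins and by further kinases, while kinetochore, spindle and chromosome proteins move the chromatids. Most white cells of circulating blood are at rest, and the transcripts of both groups are known to be low in resting cells. PCNA and several MCM genes also have a basal level outside division, since PCNA serves in DNA repair.

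The series holds 11 arrays of Arctic fox blood and 1 array that its title calls a canine control. Blood was drawn into PAXgene tubes, which stabilise RNA, according to the labels, and the foxes were examined for polychlorinated biphenyls (PCBs) and mercury, and no exposure, age or sex of a single fox was given. The foxes are numbered 1 to 11 in the order of the series, form 1 group, and are not stated to be 11 animals, so the spread between them may be partly technical. The labels of the control array also read Vulpes lagopus and blood, and no source used here says what RNA it carried apart from its title. Values are the authors' log2 values from RMA, without a detection call or a floor, so a low value may be background, and levels of different probe sets cannot be ranked. Each gene is read by its probe set with the highest mean over the 12 arrays unless another is named.

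The control array went against its blood label. ALB, the serum albumin of the liver, averaged 6.58 ± 0.20 in the foxes (SD, n = 11) and stood at 15.30 on the control array, and 5 of 5 liver markers and 4 of 5 intestine markers were called higher there. Of the skeletal muscle markers, MYH2 averaged 5.31 in the foxes and stood at 14.31 on the control. TNNT3 and ACTN2 had control minus fox differences of 2.21 and 0.28 on the log2 scale, and MYH1 of −0.58. Pearson's r over all probe sets was 0.684 to 0.764 between the control and a fox, and 0.900 to 0.990 between foxes. Array medians were 7.06 to 7.17 in the foxes and 6.85 on the control, and the median gene was 0.53 lower on the control than in the foxes on the log2 scale. Foxes 9, 10 and 11 had a GAPDH 3′ signal that exceeded its middle signal by 0.54, 0.42 and 1.08, where the gap was 2.56 to 3.19 for foxes 1 to 8 and −0.08 for the control array, so RNA quality as read by this probe pair differed between these foxes and the others. Precision is limited by how few arrays there are, with a single one for the control.

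The first comparison set the foxes beside the canine control, as the only labelled kinds of array. Every difference below is control minus fox mean on the log2 scale, so a positive value is a gene higher on the control array. It was tested with limma on all tested probe sets, Benjamini-Hochberg adjusted, and a gene was called at an adjusted p under 0.05. The fit assumes that the lone control array varies as the foxes do, and the smallest p that an exact permutation of 1 array among 12 allows is 0.0833. In bulk RNA, fewer cells of a type and less RNA per cell cannot be told apart. The control also differs from the foxes in tissue markers, in the GAPDH signal and, if its title means dog RNA, in its match to dog probes. Species, tissue and RNA quality therefore cannot be told apart in any difference below.

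Of 18 mitotic genes, 9 were called higher on the control and 2 lower, with a median difference of 1.26. Of 18 S phase genes, 5 were called higher and 3 lower, with a median of −0.14. Over all genes tested, 18.5% were called higher and 44.6% lower, with a median of −0.53. With each array centred on its median the calls became 14 higher and 1 lower among the mitotic genes and 5 higher and 1 lower among the S phase genes. All genes shifted too under that setting, to 21.0% called higher and 26.0% lower. After a second quantile normalization the calls were 9 and 2 for the mitotic genes and 5 and 2 for the S phase genes, beside 16.4% higher and 33.2% lower of all genes. With dim probe sets left out the mitotic median was 0.73, and limma gave 5 higher calls and 1 lower call in 11 genes. With each gene read by its probe set of highest mean over the foxes alone the mitotic median was 0.52, with 8 higher and 2 lower calls in 18 genes. Shares of all genes are not given for the dim filter or for this reading. The control value lay above all 11 foxes for 11 mitotic and 5 S phase genes, against 21.7% of all genes. It lay below all foxes for 2 mitotic and 5 S phase genes, against 56.1% of all genes. The 11 mitotic genes above all foxes include NDC80 and BIRC5, whose probe sets were the brightest only with the control counted. For both, the probe set of highest mean over the foxes alone had its control value inside the range of the foxes.

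**Figure D1:**
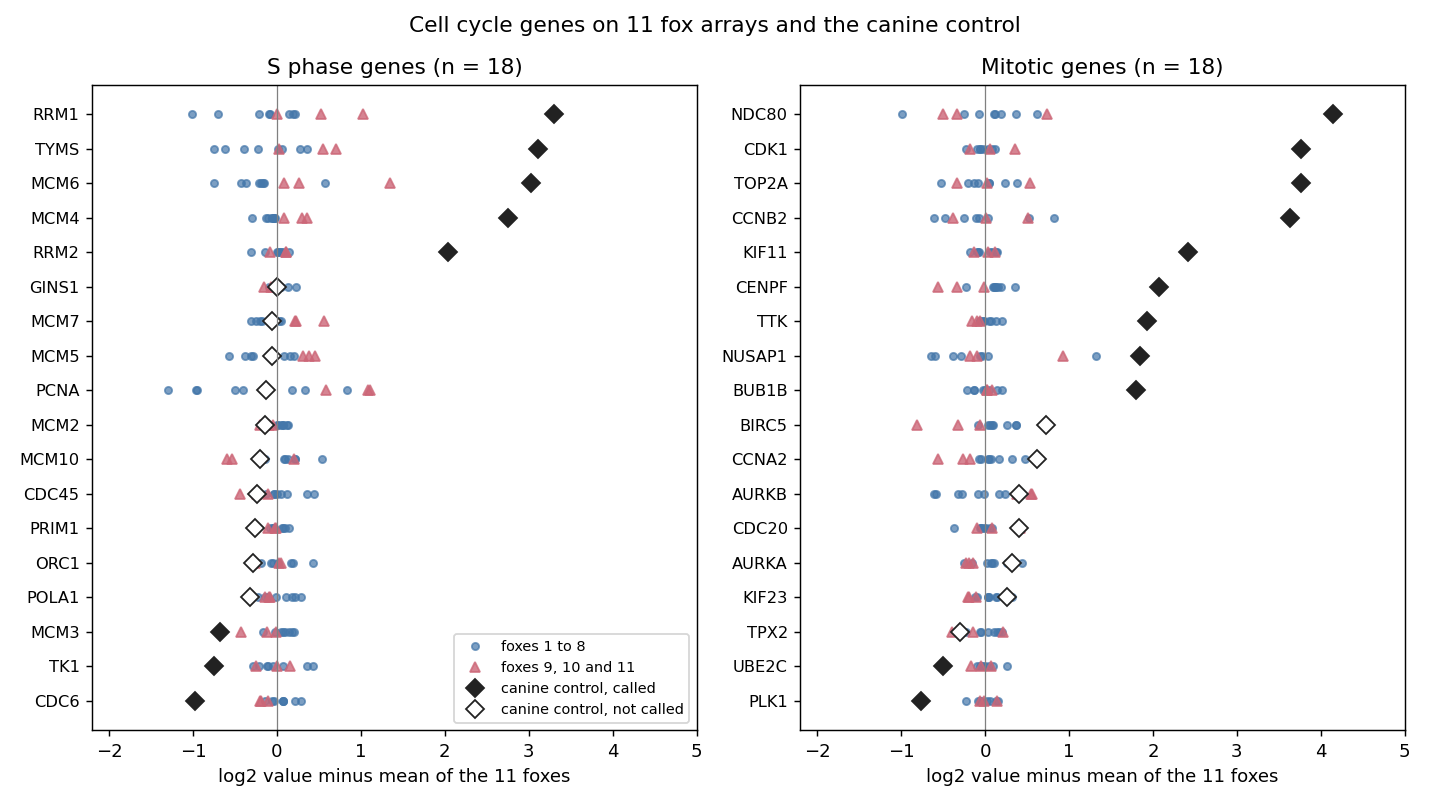
Log2 value minus the mean of the 11 foxes (horizontal axis) for each S phase gene (left) and mitotic gene (right), with circles for foxes 1 to 8, triangles for foxes 9, 10 and 11, and a diamond for the canine control, filled where limma called it. The control lies above all foxes for 11 of 18 mitotic and 5 of 18 S phase genes.

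The suppliers of nucleotides came first among the S phase genes, with 3 of 4 called higher on the control. RRM1, the large subunit of ribonucleotide reductase, which makes deoxynucleotides, ran from 6.32 to 8.36 in the foxes with a median of 7.34, and stood at 10.63 on the control. The control exceeded every fox, by a difference of 3.30 (SE 0.52, limma adjusted p = 0.000278). TYMS, thymidylate synthase, ran from 7.88 to 9.33 in the foxes with a median of 8.65, and stood at 11.74 on the control. That difference was 3.11 (SE 0.44, limma adjusted p = 0.000124), and all foxes lay below the control. RRM2, the small subunit of ribonucleotide reductase, whose level follows S phase, ran from 7.20 to 7.66 in the foxes with a median of 7.55, against 9.55 on the control. The difference of 2.04 (SE 0.16, limma adjusted p = 3.46e-07) stood beside a fox SD of only 0.13. TK1, the thymidine kinase that salvages thymidine, was called the other way, at 6.19 ± 0.24 in the foxes (SD, n = 11) and 5.44 on the control, a difference of −0.75 (limma adjusted p = 0.018) that missed the threshold with centred arrays (limma adjusted p = 0.104).

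Licensing genes were divided, with 2 of 8 called higher on the control and 2 lower. The subunits of the MCM ring, MCM2 to MCM7, work together as 1 helicase, yet their probe sets did not move together. MCM6 ran from 8.97 to 11.07 in the foxes with a median of 9.56, and stood at 12.75 on the control. The difference was 3.03 (SE 0.54, limma adjusted p = 0.000663), and fox 11 was the fox nearest to the control. MCM4 ran from 6.44 to 7.10 in the foxes with a median of 6.71, against 9.49 on the control, a difference of 2.75 (SE 0.20, limma adjusted p = 2.08e-07). MCM3 averaged 7.56 ± 0.19 in the foxes (SD, n = 11) and 6.88 on the control, a difference of −0.67 (limma adjusted p = 0.0114), and all 4 of its probe sets were called lower. The MCM3 call was lost with centred arrays (limma adjusted p = 0.0845). MCM2, MCM5 and MCM7 had differences of −0.14, −0.06 and −0.05, none of them called, although MCM5 was called lower after the second quantile normalization (difference −1.10, limma adjusted p = 0.017).

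Of the loaders of the ring, CDC6 was called and ORC1 was not. CDC6, which helps to place MCM on origins, ran from 7.44 to 7.93 in the foxes with a median of 7.61, against 6.67 on the control. It was called lower there, by a difference of −0.97 (SE 0.18, limma adjusted p = 0.000769). ORC1, a subunit of the origin recognition complex, averaged 5.90 ± 0.22 in the foxes (SD, n = 11) and 5.62 on the control and was not called (limma adjusted p = 0.27).

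Later steps of replication had no call among their 6 genes on the probe set read for each. MCM10, CDC45 and GINS1, which turn the loaded ring into an active helicase, had differences of −0.20, −0.24 and −0.00. The control value of each lay inside the range of the foxes. POLA1 and PRIM1, the polymerase and primase subunits that start new strands, had differences of −0.32 and −0.26, with control values below all foxes. PCNA, the sliding clamp, averaged 10.72 ± 0.87 in the foxes (SD, n = 11) and 10.59 on the control, a difference of −0.14 (SE 0.82, limma adjusted p = 0.894), smaller than its own SE.

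Among the mitotic genes, CDK1 and its cyclins came out higher on the control in 2 of 3 measured genes. CDK1, the kinase that starts mitosis, ran from 5.04 to 5.63 in the foxes with a median of 5.25, and stood at 9.04 on the control. Its difference of 3.76 (SE 0.18, limma adjusted p = 2.78e-09) was more than the whole range of the foxes. CCNB2, a B-type cyclin that partners CDK1, ran from 6.60 to 8.03 in the foxes with a median of 7.13, against 10.84 on the control, a difference of 3.64 (SE 0.43, limma adjusted p = 2.58e-05). CCNA2, the cyclin of S phase and early mitosis, averaged 7.25 ± 0.28 in the foxes (SD, n = 11) and 7.87 on the control. That value lay above all foxes but was not called (limma adjusted p = 0.0703). It was called once foxes 9, 10 and 11 were left out (limma adjusted p = 0.0422), and also with centred arrays and without fox 1 or fox 10 alone. After the second quantile normalization it was still not called.

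The mitotic kinases and survivin held 2 genes called higher on the control and 1 lower among 6. TTK, the checkpoint kinase also known as MPS1, averaged 5.19 ± 0.11 in the foxes (SD, n = 11) and 7.12 on the control, a difference of 1.93 (limma adjusted p = 1.48e-07). BUB1B, the checkpoint protein BUBR1, averaged 5.15 ± 0.12 in the foxes (SD, n = 11) and 6.94 on the control, a difference of 1.79 (limma adjusted p = 8.08e-07). PLK1, polo-like kinase of spindle assembly and mitotic exit, averaged 7.07 ± 0.12 in the foxes (SD, n = 11) and 6.32 on the control and was called lower there (difference −0.76, limma adjusted p = 0.000885). AURKA and AURKB, the kinases of spindle poles and of the chromosomal passenger complex, had differences of 0.33 and 0.41, and BIRC5 (survivin), a passenger protein, of 0.73, none of them called (limma adjusted p = 0.221, 0.387 and 0.0727). With centred arrays AURKA and BIRC5 were called higher. The probe set of BIRC5 with the highest mean over the foxes alone had a difference of −0.14.

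Kinetochore genes and the machinery that ends mitosis differed from each other. NDC80, which attaches kinetochores to microtubules, ran from 6.17 to 7.90 in the foxes with a median of 7.27, and stood at 11.30 on the control. Its difference of 4.15 (SE 0.48, limma adjusted p = 2.12e-05) rested on a probe set with the highest mean only when the control is counted. The probe set of NDC80 with the highest mean over the foxes alone had a difference of 0.07 and was not called (limma adjusted p = 0.736). CENPF, a kinetochore protein of late division, ran from 6.49 to 7.41 in the foxes with a median of 7.16, against 9.13 on the control, a difference of 2.07 (SE 0.27, limma adjusted p = 5.39e-05). UBE2C, the ubiquitin-conjugating enzyme of the anaphase-promoting complex, averaged 8.56 ± 0.12 in the foxes (SD, n = 11) and 8.06 on the control and was called lower (difference −0.50, limma adjusted p = 0.0104). That call was lost with centred arrays (limma adjusted p = 0.188). CDC20, the activator of the same complex, had a difference of 0.40 and was not called (limma adjusted p = 0.0935), but was with centred arrays (limma adjusted p = 0.0178).

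Spindle and chromosome proteins had 3 of 5 genes called higher on the control and none lower. TOP2A, the topoisomerase that untangles sister DNA, ran from 6.32 to 7.38 in the foxes with a median of 6.86, and stood at 10.60 on the control. The difference was 3.76 (SE 0.30, limma adjusted p = 6.11e-07). KIF11, the kinesin that pushes spindle poles apart, ran from 3.89 to 4.21 in the foxes with a median of 4.10, near the lowest value of the whole table at 3.23, and stood at 6.48 on the control. The difference was 2.41 (SE 0.14, limma adjusted p = 2.33e-08). NUSAP1, a microtubule-bundling protein, had a difference of 1.85 (SE 0.57, limma adjusted p = 0.0154), a call lost after the second quantile normalization (limma adjusted p = 0.121), and neither KIF23, a kinesin of cytokinesis, nor TPX2, a spindle assembly factor, was called (differences 0.26 and −0.30), while KIF23 was called higher with centred arrays (limma adjusted p = 0.0252).

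The probe sets of 1 gene often disagreed, which bears on each value above. Over all 76, limma called 28 higher on the control and 12 lower, against 18.9% higher and 42.1% lower of all probe sets. The 35 mitotic probe sets held 16 higher and 5 lower calls, with a median difference of 0.59, and the 41 S phase probe sets held 12 higher and 7 lower, with a median of −0.06. The median over all probe sets was −0.46. Of 25 genes with several probe sets, 13 had the same call throughout, of which 5 were higher, 2 lower and 6 not called. Another 10 mixed called and uncalled probe sets, and 2 were called in both directions. The gap between the highest and lowest difference of a gene had a median of 1.26 and reached at least 2 in 11 genes. How often probe sets of a gene disagree over the whole array is not given here, so these counts have no background beside them.

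CDK1, TYMS, TOP2A, MCM6 and CENPF were called higher on the control by all their probe sets. The 3 of CDK1 gave differences of 5.08, 3.76 and 2.18. Those of TYMS gave 3.11, 1.09 and 1.05. For other genes the call rested on which probe set was read. KIF23 had a second probe set that ran from 4.34 to 5.54 in the foxes with a median of 4.62 and stood at 9.0 on the control, a difference of 4.28 (limma adjusted p = 6.42e-07), against 0.26 for the probe set with the highest mean. ORC1 had a probe set with a difference of 2.28 (limma adjusted p = 9.65e-07) beside others at −0.14 and −0.29. CCNB2 gave 3.64 and −0.03, and RRM2 gave 2.04 and 0.31. MCM4 gave 2.75, 0.15 and −0.16, while NDC80 gave 4.15, 3.96 and 0.07. RRM1 gave 3.30, 2.98 and 0.22. The probe sets of POLA1 gave −0.32 and 0.89, those of MCM7 −0.05 and −0.62, and those of TPX2 −0.30 and 0.59. In these 3 genes the second value is that of the probe set not read above.

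CDC6 and NUSAP1 were called in opposite directions by different probe sets. A second probe set of CDC6 had a difference of 1.13 (limma adjusted p = 0.0115), against −0.97 for the one read above. NUSAP1 had another at −1.06 (limma adjusted p = 0.00124), against 1.85. With the probe sets of each gene averaged, CDC6 and NUSAP1 were not called (limma adjusted p = 0.741 and 0.811) and ORC1 was called higher, at 0.62 (limma adjusted p = 0.00342). Counted over any of their probe sets, 11 mitotic and 8 S phase genes had at least 1 called higher. Counting in this way can only raise the number, and no share of all genes by the same rule is given to set beside it. Names ending in _s_at or _x_at mark probe sets that may match several transcripts or related sequences, and the matched transcripts were not checked, since no probe sequences were used here.

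**Figure D2:**
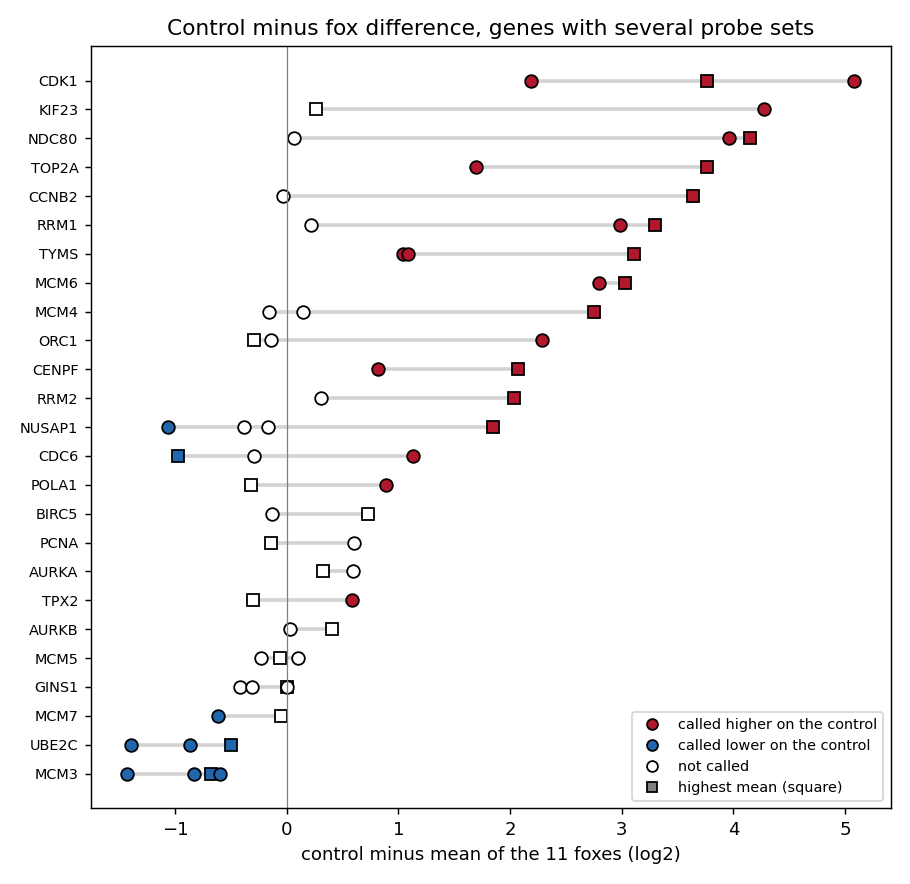
Control minus fox mean (log2, horizontal axis) of every probe set of the 25 genes with several, with a line from the lowest to the highest of a gene. Squares mark the probe set with the highest mean, red those called higher on the control, blue those called lower and white those not called, and CDC6 and NUSAP1 carry both colours.

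Other genes of the same pathways were read from lists that hold none of the 40 symbols. Of 37 measured genes of 39 further replication genes, 12 were called higher on the control and 11 lower, with a median of 0.26. GMNN (geminin, which blocks a second round of licensing) stood at 7.96 ± 0.33 in the foxes (SD, n = 11) and 11.66 on the control, a difference of 3.70 (limma adjusted p = 1.5e-06). DUT, which removes dUTP, and RFC4 and RFC3, subunits of the clamp loader, had called differences of 2.97, 2.90 and 2.52, while POLD2, a subunit of polymerase delta, was lower at −2.21 (limma adjusted p = 0.0205). Of 51 measured genes of 55 further mitosis genes, 15 were higher and 12 lower, with a median of −0.05. BUB3 (a checkpoint protein), SPC25 (a partner of NDC80), MELK (a kinase of dividing cells) and KIF20B (a kinesin) had called differences of 3.98, 3.40, 3.21 and 2.98. The share called higher was 50% of the mitotic genes described above, against 29.4% in this mitosis list.

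Genes that lead into the cycle or hold it back had shares of lower calls of 52.6% and 53.3%, near the 44.6% of all genes. Of 19 measured G1 entry genes, 1 was called higher and 10 lower, with a median of −0.77, and of 15 measured brake genes 2 were higher and 8 lower, with a median of −0.54. CCND2 (cyclin D2) was the G1 entry gene called higher, at 8.83 ± 0.85 in the foxes (SD, n = 11) and 11.26 on the control (difference 2.43, limma adjusted p = 0.02). CCND3, CDK2 and E2F1, a D-type cyclin, a cyclin-dependent kinase and the S phase transcription factor, had called differences of −1.39, −1.13 and −1.09. Among the brakes, LIN54 (of the DREAM complex, which represses cell cycle genes in resting cells) and CDKN2C (an inhibitor of CDK4 and CDK6) were higher, by 2.53 and 1.47. The control value of CDKN2C, 10.18, lay inside the foxes, below fox 11 at 10.37. The brakes with the largest differences downward were CDKN2D at −2.31, which was not called, and PKMYT1 at −1.09, which was among the 8 lower. The lists of pathways beside all genes show these shares side by side.

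**Figure D3:**
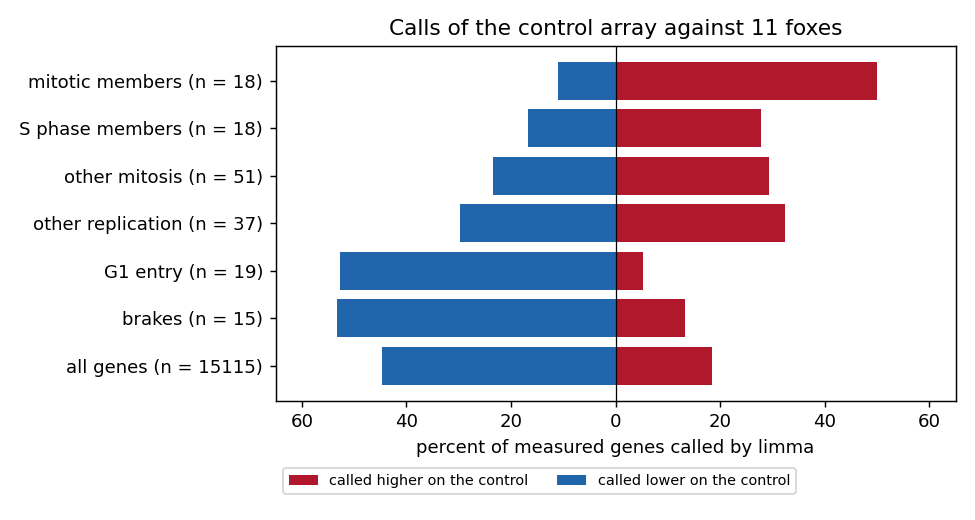
Percent of the measured genes of each list that limma called higher on the control (red, to the right) or lower (blue, to the left), with the number of measured genes beside each name. Mitotic members have the highest share of higher calls, at 50%, against 18.5% of all genes.

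Markers of blood, marrow and other cells that may divide gave these values on the control, where 18.5% of all genes were called higher and 44.6% lower, with a median difference of −0.53. All 3 measured thymocyte markers and all 4 measured immature granulocyte markers were called lower there than in the foxes, the thymocyte markers with a median difference of −0.55, close to that of all genes. Of 7 measured germ cell markers 3 were higher, DDX4 by 4.0, SYCP1 by 1.64 and ODF1 by 0.88, and PIWIL1 was lower by a difference of −0.53. Of 7 measured erythroid markers 6 were lower and HEMGN was higher, of 6 B and plasma cell markers 5 were lower and JCHAIN was higher, and of 8 T cell markers 3 were lower and CD3G was higher. LGR5, the stem cell marker of the intestine, was lower by a difference of −0.89 while the other 4 intestine markers were higher. The 4 stem and progenitor markers of blood had a median difference of −0.55, close to that of all genes. No measured marker of neutrophils, monocytes, platelets or natural killer cells was called higher. Scores over whole lists, each gene centred on its fox mean, ran from −0.22 to 0.16 in the foxes for liver, against 7.38 on the control. For germ cells the score ran from −0.36 to 0.23 in the foxes, against 0.66 on the control, and for thymocytes from −0.23 to 0.19 in the foxes, against −0.62 on the control. The part of any of these in the cell cycle values was not tested.

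The second question was how much the same genes varied between foxes. The median SD was 0.23 for S phase genes and 0.21 for mitotic genes, beside 0.23 for all genes. At least 0.5 was the SD of 3 S phase genes and 2 mitotic genes, together 5 of 36, against 18.3% of all genes. In foxes 1 to 8 alone it was reached by PCNA at 0.74 and NUSAP1 at 0.62, 2 of 36, against 9.61% of all genes. Both shares were no higher than those of all genes.

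PCNA varied most, with an SD of 0.87. It stood at 11.30, 11.83 and 11.81 in foxes 9, 10 and 11, and at 9.77, 10.90, 10.22, 11.55, 9.42, 9.75, 10.31 and 11.06 in foxes 1 to 8. Foxes 9, 10 and 11 were high but fox 4 reached into their range. A second probe set of PCNA stood at 11.58, 12.02 and 11.92 in foxes 9, 10 and 11 and between 9.21 and 10.45 in foxes 1 to 8, with no overlap. Within foxes 1 to 8 the probe sets of PCNA had a Pearson r of 0.90 (n = 8), a description of values that share arrays and a gene.

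MCM6, with an SD of 0.57, stood at 9.99, 9.80 and 11.07 in foxes 9, 10 and 11 and between 8.97 and 10.30 in foxes 1 to 8. Fox 11 was apart from the rest, and fox 8 came next. On its second probe set foxes 9, 10 and 11 stood at 9.16, 8.48 and 9.14, all above the highest of foxes 1 to 8 at 8.08. RRM1, with an SD of 0.55, was also highest in fox 11, at 8.36, and lowest in fox 5, at 6.32. TYMS, with an SD of 0.46, had its highest value of 9.33 in fox 11 and its lowest of 7.88 in fox 3.

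The most variable mitotic gene was NUSAP1, with an SD of 0.60. Fox 2 at 9.46 and fox 11 at 9.07 stood above the other foxes, which ran from 7.5 to 8.18. NDC80, with an SD of 0.50, was highest in fox 11 at 7.90 and fox 1 at 7.78, and lowest in fox 5 at 6.17. CCNB2, with an SD of 0.45, was highest in fox 8 at 8.03 and lowest in fox 2 at 6.60. AURKB, with an SD of 0.42, stood at 10.50, 10.33 and 10.50 in foxes 9, 10 and 11, all above the range of 9.35 to 10.19 in foxes 1 to 8.

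**Figure D4:**
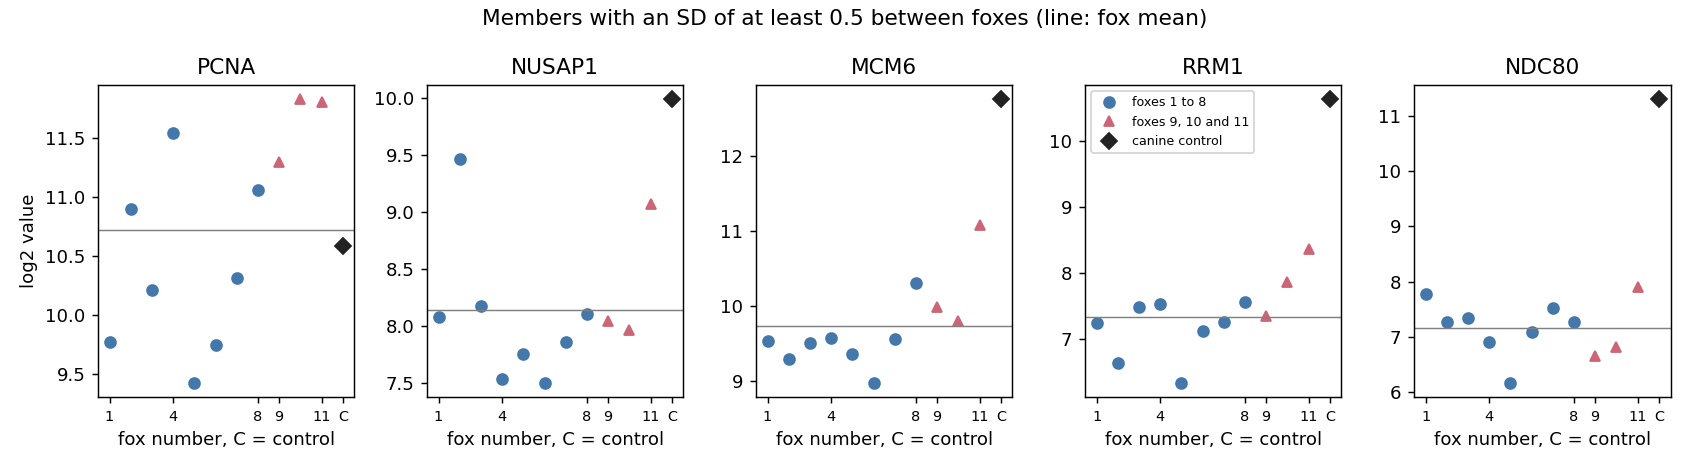
Log2 value by fox number (1 to 11, then C for the canine control) of the 5 genes with an SD of at least 0.5 between foxes, with circles for foxes 1 to 8, triangles for foxes 9, 10 and 11, a diamond for the control and a line at the fox mean. Each panel has its own vertical scale, and PCNA is the one gene of these whose control value lies inside the foxes.

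Foxes 9, 10 and 11 all stood above foxes 1 to 8 in 4 genes, MCM4, MCM5, MCM7 and AURKB, against 14.2% of all genes, and all below in CCNA2 alone, against 14.6%. MCM5 stood at 11.68, 11.75 and 11.61 in foxes 9, 10 and 11, and its highest value in foxes 1 to 8 was 11.50. CCNA2 stood at 7.07, 6.69 and 6.99 in foxes 9, 10 and 11, and its lowest value in foxes 1 to 8 was 7.18. In the further mitosis list all 3 foxes stood below the others in 15 of 51 genes and above in 0. Some scores of blood cell markers, each the mean log2 value centred on the fox mean, set the same foxes apart. The T cell score was 0.79, 0.65 and 0.62 in foxes 9, 10 and 11, and −0.43 to 0.14 in foxes 1 to 8. The neutrophil score was 1.01, 1.51 and 0.96 in foxes 9, 10 and 11, and −0.69 to 0.16 in foxes 1 to 8. Monocyte, platelet and natural killer cell scores also stood higher in foxes 9, 10 and 11. Other scores overlapped. The erythroid score was 0.15, −0.12 and 0.17, against −0.52 to 0.54 in foxes 1 to 8. The B and plasma cell score was −0.03, −0.26 and −0.06, against −0.07 to 0.10. The immature granulocyte score was 0.04, −0.19 and −0.18, against −0.07 to 0.15. The part of blood cell make-up and of the GAPDH 3′ difference in these cell cycle values was not tested.

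The genes of each group were also averaged into a score per fox. The S phase score ran from −0.15 in fox 6 to 0.26 in fox 11, beside 0.56 on the control. The mitotic score ran from −0.21 in fox 10 to 0.17 in fox 11, beside 1.48 on the control. Between foxes the further lists ran from −0.06 to 0.14 for replication and from −0.19 to 0.08 for mitosis. G1 entry genes ran from −0.10 to 0.09 and brakes from −0.27 to 0.28. In foxes 9, 10 and 11 the brake score was 0.25, 0.25 and 0.28, against −0.27 to 0.04 in foxes 1 to 8. The further mitosis score was −0.12, −0.19 and −0.06 in foxes 9, 10 and 11, against −0.004 to 0.08. Further replication and G1 entry scores overlapped between these foxes and the others. Fox 11 had the highest value in 9 of 36 genes, a share of 25% against 8.25% of all genes, and fox 10 the lowest in 10, a share of 27.8% against 24.6% of all genes. These shares are a description, with no test.

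Each fox was also set against the other 10 by limma over all probe sets, to see whether 1 fox carried more cell cycle RNA than the rest. None of the 76 probe sets was called in any of the 11 fits (0 calls at an adjusted p under 0.05), while 0.0123% of all probe set tests were called, 58 in all with 37 in the fit with most calls. At an unadjusted p under 0.05, limma gave 50 of 836 tests of these probe sets, a share of 5.98% against 5.41% of all probe set tests. By fox the count was highest in fox 10, with 14 of 76 probe sets, 3 above and 11 below the other foxes, a share of 18.4% against 15.8% of all probe sets. Fox 11 had 11 of 76, 10 above and 1 below, a share of 14.5% against 7.05% of all probe sets. The other foxes had 1 to 5 each. These counts are a description, and no probe set among them passed the adjustment.

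**Figure D5:**
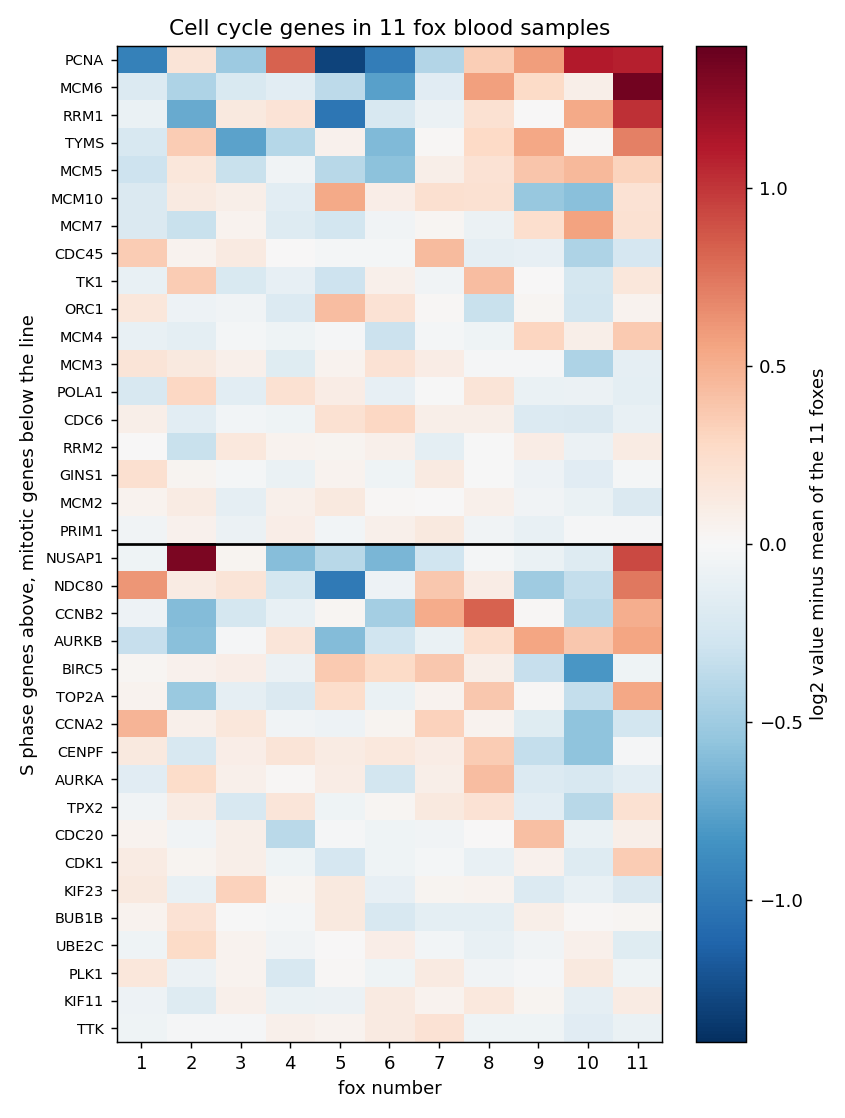
Log2 value minus the mean of the 11 foxes (colour, red above and blue below) for the S phase genes (above the line) and mitotic genes (below it) in each fox, each block sorted by SD. PCNA, at the top with an SD of 0.87, has the strongest colours, and fox 11 holds the highest value in 9 of 36 genes.

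The genes were about as correlated with each other over the foxes as genes are at large. Within foxes 1 to 8 the median Pearson r was 0.04 over 153 pairs of S phase genes (quartiles −0.29 and 0.30), 0.03 over 153 pairs of mitotic genes (quartiles −0.25 and 0.29) and 0.03 over 324 pairs across the groups. Over all pairs of all genes it was also 0.03 (quartiles −0.31 and 0.36). All pairs share the same 8 arrays, and the values describe these arrays only. Among the pairs with the highest r were RRM1 with AURKB at 0.92, CDC45 with CCNA2 at 0.88 and CDK1 with NDC80 at 0.86, and the lowest was ORC1 with PCNA at −0.90. These extremes were picked after their values were seen.

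Among the further cell cycle genes, the brakes CDKN2D and RBL2, with CCND1, CENPN and RPA3, had a larger SD than any of the 36 as read above. The second probe set of PCNA had an SD of 1.03. RPA3, a replication gene, had an SD of 0.90. CDKN2D, an inhibitor of CDK4 and CDK6, stood at 13.26, 13.16 and 13.23 in foxes 9, 10 and 11, with a fox median of 11.46 and an SD of 1.13. RBL2, the p130 pocket protein of resting cells, had an SD of 0.97, with 10.94, 11.69 and 11.41 in foxes 9, 10 and 11 and a median of 9.84. CCND1 (cyclin D1) went the other way, at 9.26, 9.26 and 8.88 in foxes 9, 10 and 11 beside a median of 9.94, with an SD of 1.01. CENPN, a centromere protein, stood at 7.61, 8.07 and 8.53 in foxes 9, 10 and 11 beside a median of 9.06, with an SD of 0.95.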

How the data were processed

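Per the submitters' processing notes, the authors made the deposited log2 values with RMA, which corrects background, normalizes by quantiles and sums up each probe set, in Affymetrix Expression Console. No source used here gives a version or states that all 12 arrays were normalized at once. Of the tested probe sets 29254 had 1 gene symbol, 439 several and 13231 none, and 111 control probe sets were not tested. Of the 36 measured genes 34 have a symbol that RefSeq also lists for the Arctic fox. Genome positions were left out because the array targets the dog, and the planned promoter search was not run because no promoter sequences were used here.

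limma 3.58.1 (lmFit and eBayes, R 4.3.3) tested the control against the 11 foxes and each fox against the others, with Benjamini-Hochberg adjustment over all 42924 probe sets and a threshold of 0.05. The control fit was also run on simulated data. There the control was drawn with the spread of the foxes, so that run could not check whether the real control varies as they do. The members and lists were chosen with earlier results of these data known. Full values went to called members, at most 6 per group by size of difference, and to the 4 with the largest SD. Members whose probe sets disagree were given with the differences of those probe sets. From each other list at most 4 genes with the largest difference and 4 with the largest SD were named, POLD2 and CCND1 for their SD. Reading CDC6, NUSAP1 and other genes by all probe sets is part of that rule, and single markers were picked after their values were seen. Alternatives were a second quantile normalization, centred arrays, a filter on dim probe sets, limma with trend and robust settings, a difference of at least 1, the mean of a gene's probe sets, foxes 9, 10 and 11 left out, and each fox left out. Reading genes by their brightest probe set in the foxes was chosen after seeing the data.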

Additional observations from a re-analysis of the deposited data

How the results depend on the processing

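The counts of S phase genes called higher on the control stayed within 1.5 times of 5 under every alternative run. With centred arrays, 1 S phase gene was called lower, their median turned to 0.13, and the mitotic genes gave 14 higher and 1 lower calls and a median of 1.53, while the median of all genes moved from −0.53 to −0.26. The second quantile normalization gave a mitotic median of 0.90, a median of all genes of −0.41, and 1 S phase gene with an SD of at least 0.5. The filter on dim probe sets left 12 S phase genes with a median of −0.055, and 11 mitotic genes with 5 higher and 1 lower calls and a median of 0.73. With the mean of a gene's probe sets the medians were −0.054 for S phase and 1.03 for mitotic genes, 0 mitotic genes reached an SD of 0.5, and ORC1 turned to 0.62. A difference of at least 1 left 0 S phase and 0 mitotic genes called lower. Read by the brightest probe set in the foxes, the mitotic median was 0.52 and 1 mitotic gene reached an SD of 0.5. Without foxes 9, 10 and 11, 1 S phase and 1 mitotic gene did, and the control comparison gave 5 higher and 3 lower S phase and 12 higher and 2 lower mitotic calls. Leaving out 1 fox gave 1 to 3 S phase genes (1 without fox 11) and 1 to 2 mitotic genes (1 without fox 1, 2, 5 or 11) with that SD, and 9 to 11 mitotic genes called higher. In the fit without foxes 9, 10 and 11, 22.9% of all genes were called higher and 51.6% lower. Shares of all genes are not given for the fits that leave out 1 fox. The cause of the shifts under these alternatives was not tested. No detection call was used, so low values such as those of KIF11 in the foxes have no floor, and the single control array has no spread of its own. No paired analysis was possible because there is 1 control array and no label links it to a fox.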
